A study of Mus musculus with 9 samples.

Results

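Of 19858 genes listed in the control or the injury table of UMI counts (UMIs are molecular tags, 1 for each captured RNA molecule), 2403 were listed in the injury table alone. The 58 of these with 1 or more UMIs in at least 150 nuclei of the injured kidneys are described here. A further 16939 genes were in both tables and 516 in the control table alone. Each table lists a gene only from 3 nuclei with a UMI upward, so a gene missing from the control table may have had a UMI in up to 2 of its 13116 nuclei if that limit was a filter. Absence from the control table and the number of injured nuclei chose the genes, so both are given as a description and support nothing further.

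The injury table held 14622 nuclei of 5 male mice with the alleles Krt20T2A-CE and INTACTnuGFP/+ (ischemia-reperfusion injury, IRI). Tamoxifen at 0.05 mg/g switched on a recombinase under the Krt20 gene, and nuclei with GFP therefore mark cells that had expressed Krt20 and their descendants. Both renal pedicles were clamped for 18 min, and kidneys were taken at day 7 (2 mice) or day 28 (3 mice). The control table came from 4 male mice of another line, Six2TGC; Rosa26rtTA ; pTRE-H2BeGFP, on food with doxycycline at 625 mg/kg, of which 3 had sham surgery and 1 had none; there GFP marks the nephron lineage. All mice were 11 to 19 weeks old, and frozen kidneys gave nuclei that were sorted for GFP. Line, sort and injury differ together between the tables, so their parts in a gene's absence from the control table cannot be told apart. Each library was taken as 1 mouse, as the serum values in the labels differ by library.

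The proximal tubule reabsorbs most of what the glomerulus filters and is the segment that ischemia injures most. Injured proximal tubule cells lose transporters and switch on genes such as Havcr1, which encodes the surface receptor KIM-1, and Vcam1, an adhesion gene of cells that fail to recover. Such cells can also make chemokines, cytokine receptors and cytoskeletal proteins that the healthy segment does not make. Many transcripts read from the strand opposite a protein-coding gene are noncoding, and a count assigned to them depends on how reads of overlapping genes were told apart.

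Depth and kit differed with the groups. The IRI libraries held 1397 to 3928 nuclei and 2409411 to 14641038 UMIs, with a median of 1185 to 4174 UMIs per nucleus, against 668 to 1938 in the controls. Cell barcodes of the controls and of day 28 mouse 1 began as the older (v2) Chromium set does, and those of the other 4 IRI libraries as the newer (v3) set does. Day 28 mouse 1 stood apart in other ways: it had the shallowest IRI library and a serum creatinine of 0.488 mg/dL at 48 hours, against 0.133 to 0.255 in the other IRI mice. Pairs of IRI libraries shared at most 4 cell barcodes. The 58 genes had 1148 UMIs in day 28 mouse 1, the IRI library with v2 barcodes, or 476 CPM (UMIs scaled to a common library total, as counts per 1e+06), against 529 and 558 at day 7 and 631 and 673 in day 28 mice 2 and 3. Of the 58, 51 had a UMI in that library, 48 in day 7 mouse 2 and all 58 in each of the other 3. With each nucleus thinned to 1000 UMIs, which leaves out 2084 shallower nuclei, 12 genes reached 150 nuclei.

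Nuclei were grouped by clustering on genes in both tables, so none of the 58 entered the grouping. Of the IRI nuclei, 80.9% were proximal tubule-like by markers, and 73.1% were proximal tubule-like of an injured state, meaning that their cluster scored higher on injured than on uninjured proximal tubule markers. This class is broad: 1 cluster of 972 nuclei in it scored 0.67 on injured and 0.15 on uninjured markers and had the transporter gene Slc5a12 among its leading genes. Slc34a1, a phosphate transporter gene that defines the proximal tubule, had 3440 CPM in the uninjured state and 318 in the injured state, and Havcr1 had 108 and 752. Both genes are among the markers that set the states, so these values describe the split and do not check it. Leukocyte-like nuclei made up 1.53% of the IRI nuclei, stroma-like nuclei 2.67% and endothelium-like nuclei 3.02%.

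Promoter sequences are shown for 3 of the genes that were higher in injured-state than in uninjured-state nuclei. Ubd among them was low in both, at 4.43 and 0.882 CPM. They were picked because each holds the letters of a motif of AP-1 or NF-kB, transcription factors known for their activity after injury. RefSeq promoters of build GRCm38.p6 were found for 34 of the 58 genes. The 250 bases before the annotated start are printed 5′ to 3′ on the strand of the gene, with motif letters in capitals. For Xirp2 (chr2:67445752-67446001, + strand) the AP-1 letters begin 107 bases before the start. For Il1rn (chr2:24336610-24336859, + strand) they begin 141 bases before the first of 3 annotated starts. In Ubd (chr17:37193642-37193891, + strand) the NF-kB letters begin 15 bases before the start. A window of 30 bases before another annotated start of Il1rn (chr2:24345310-24345339, + strand) holds NF-kB letters.
Xirp2: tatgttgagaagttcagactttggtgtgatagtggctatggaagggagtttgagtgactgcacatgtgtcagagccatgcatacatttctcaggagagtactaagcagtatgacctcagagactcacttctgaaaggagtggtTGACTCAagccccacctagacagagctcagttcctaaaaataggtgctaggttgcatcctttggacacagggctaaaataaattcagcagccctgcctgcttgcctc
Il1rn: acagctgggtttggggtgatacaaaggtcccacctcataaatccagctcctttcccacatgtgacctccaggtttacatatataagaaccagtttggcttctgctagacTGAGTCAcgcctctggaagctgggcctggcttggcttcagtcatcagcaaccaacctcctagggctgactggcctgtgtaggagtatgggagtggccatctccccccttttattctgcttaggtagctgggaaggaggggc
Ubd: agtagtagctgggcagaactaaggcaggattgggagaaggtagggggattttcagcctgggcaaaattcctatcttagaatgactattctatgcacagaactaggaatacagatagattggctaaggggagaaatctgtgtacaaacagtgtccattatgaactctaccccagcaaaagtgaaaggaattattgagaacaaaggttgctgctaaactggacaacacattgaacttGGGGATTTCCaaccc
Il1rn, other start: ggaaatatgaGGGTTTTTCCgcttctgaca

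Motifs were searched on both strands in the 300 bases from 250 before to 50 after each start. AP-1 letters (TGANTCA) were in 10 of the 43 promoters of these genes, belonging to 9 genes, and in 7.81% of 32851 promoters. NF-kB letters (GGGNN followed at once by TTTCC) were in 4, belonging to 3 genes, and in 1.63% of all. The same site of Il1rn was counted for more than a single start, as it begins 51 bases before a start and 29 bases after another. RUNX letters (TGTGGT) were in 11 against 16.8%, and TEAD letters (GGAATG) in 6 against 14.7%. In the 43 promoters 1 pair of matches overlapped. A match describes letters only, and Ccdc33, Clec2g, Tmem154 and 3 noncoding or predicted genes hold AP-1 letters as well.

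Protein-coding genes made up 38 of the 58 (65.5%), antisense transcripts 12 and long intergenic noncoding RNAs 8. Among the 11918 genes of both tables with a UMI in 150 or more IRI nuclei, 93.8% were protein coding. The median span on the genome was 19345 bp, against 29511 bp for those genes. Among the genes of both tables, 39 of the 11918 had UMIs in only 3 to 5 control nuclei. Just inside the limit of 150 nuclei lay Ubd with 152 and Clic6 and Gm17300 with 151, and just outside it lay Gm3696 and Slc26a9 with 147 and Itih3 with 146. Of the lists of gene families, cytokines and their receptors held Il18rap, Cxcl5 and Il1rn, ion channels held Kcng2, and genes noncoding or predicted by name held 22. No member was on the lists of leukocyte, stromal, endothelial, cell cycle, matrix, keratin, developmental transcription factor, adhesion or growth factor genes.

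Basp1, a membrane-bound signalling protein known from nerve growth cones, was seen in the most nuclei, 1220, with 1840 UMIs. Its level in proximal tubule-like nuclei was 55.6 and 43.4 CPM at day 7 and 40.0, 34.3 and 41.8 at day 28. In these CPM all 3 day 28 libraries lay below both at day 7, by little between 43.4 and 41.8. With the scaling used in the test of days further on, day 7 mouse 2 had 41.57 and day 28 mouse 3 had 41.78, so the days overlapped. That test did not pass. Next by nuclei came the noncoding Gm48099 (881), Pdlim4 (752), a PDZ and LIM protein of the actin cytoskeleton, the noncoding Gm29337 (691), and Adgra1 (676), an adhesion-type G protein-coupled receptor. Iqsec3, an exchange factor for ARF proteins at inhibitory synapses, had 640, Ccdc33 had 633, the secreted protein gene Lgi2 had 628, the receptor gene Gpr176 had 619, and C1ql3, a secreted C1q-like protein of synapses, had 519. A UMI in all 5 libraries was seen for 43 of the 58, and in 19 genes 1 library held most of the UMIs.

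**Figure D1:**
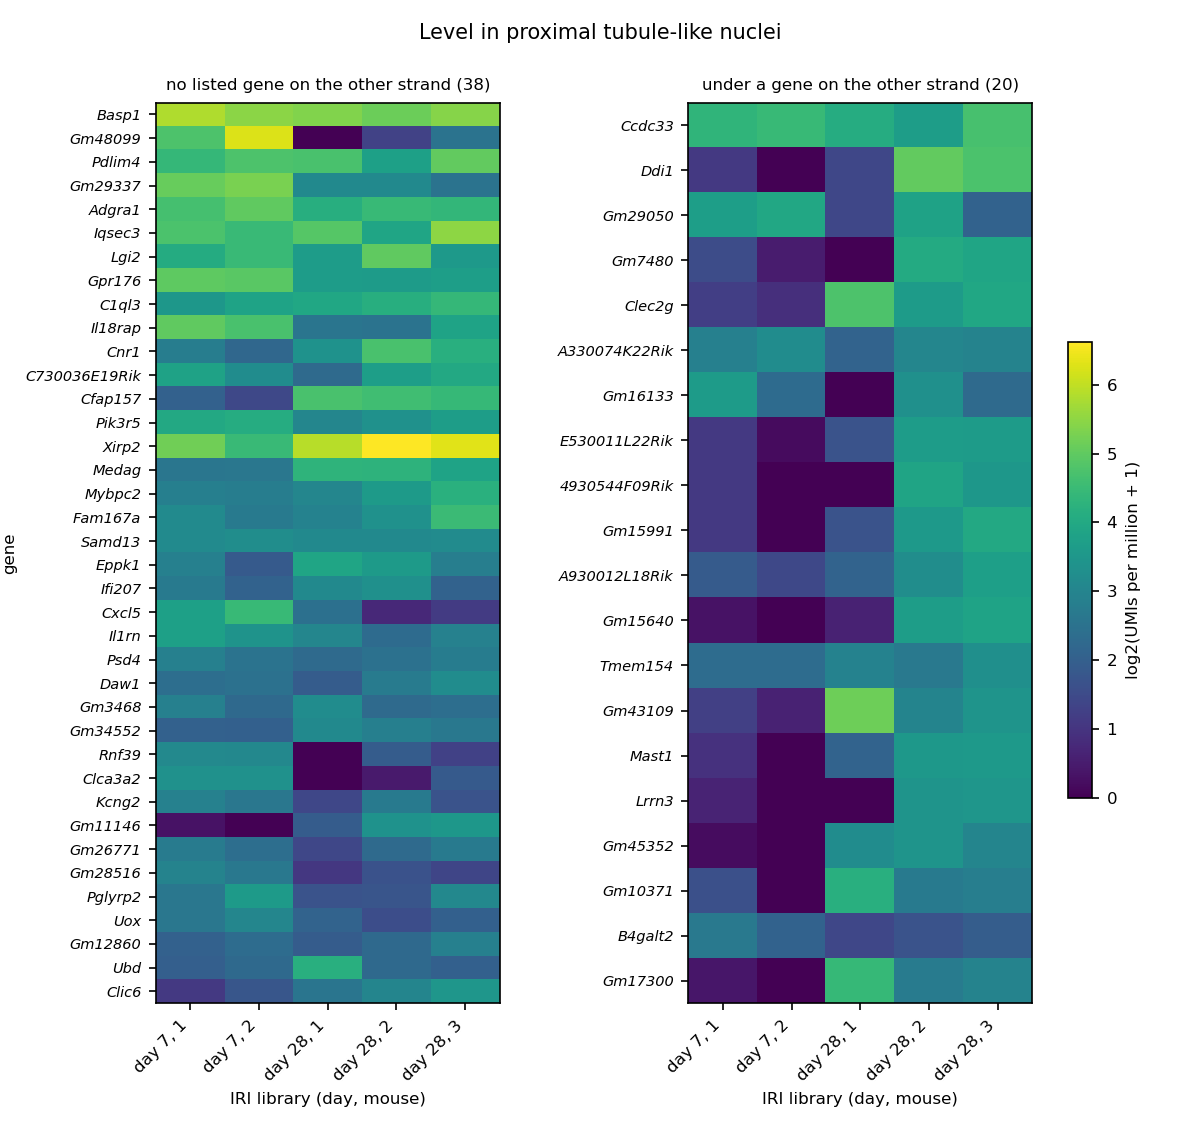
Level of each of the 58 genes (rows, by number of nuclei) in proximal tubule-like nuclei of each IRI library (columns), as log2(CPM + 1), with the 20 genes under a listed gene on the other strand at the right. Rows such as Basp1 are even across libraries, while 9 of the 20 had no UMI in day 7 mouse 2.

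By cell type, the median member had 88.8% of its UMIs in proximal tubule-like nuclei, against a median of 82.7% for genes of both tables with 150 or more IRI nuclei. In 54 of the 58 the share was over 80%. Levels outside the proximal tubule were read against those of proximal tubule genes, since free RNA in the droplets gives UMIs to cells that do not express a gene. Havcr1 in thick ascending limb-like (TAL-like), distal-like and leukocyte-like nuclei stood at 60.8%, 38.7% and 45.6% of its proximal tubule level, and Slc34a1 at 45.7%, 58.85% and 70.8%. The median member stood at 58.0%, 55.3% and 53.3%, inside or near that range, so its levels there are not read as expression by those classes. The part of free RNA in these levels was not tested. Clic6, a chloride channel family gene, had 4.48 CPM in proximal tubule-like nuclei and at most 1.30 in another class, with 162 of its UMIs in the proximal tubule. C730036E19Rik, a noncoding transcript, had 11.6 CPM against at most 5.50. Gm3468 had 4.98 against at most 2.75, and it shares its strand and place with other predicted genes, so its counts are uncertain. Gm48099 had no such order, with 61.5 CPM in endothelium-like and 51.3 in leukocyte-like nuclei.

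By pooled CPM alone, 13 of the 58 were highest in proximal tubule-like nuclei, 13 in leukocyte-like, 11 in podocyte-like, 7 in endothelium-like, 6 in stroma-like, 5 in intercalated-like, 2 in distal-like and 1 in TAL-like nuclei. Many of those levels rest on a few UMIs, since podocyte-like nuclei number 58 and intercalated-like nuclei 141. The genes described next had 17 or more UMIs in the other class. Pik3r5, a regulatory subunit of the phosphoinositide 3-kinase of leukocytes, had 128 CPM in leukocyte-like nuclei and 12.8 in proximal tubule-like nuclei. Its leukocyte-like level was 166 and 96.0 CPM at day 7 and 77.1, 78.8 and 183 at day 28, from 1 to 25 UMIs a library. Ifi207, of the interferon-inducible gene family 200, had 138 CPM there, against 18.5 in stroma-like nuclei, the next class. By whole class, Basp1 (89.7 against 44.5 in the tubule), Psd4 (43.6 against 5.34) and Il18rap (64.1 against 18.8) were highest in leukocyte-like nuclei too. By single cluster, Il18rap had 64.66 CPM in cluster 27, a proximal tubule-like cluster led by Lockd. Basp1 had 89.577 CPM in another cluster beside 89.695 in the leukocyte-like cluster, and Pik3r5 had 84.441 in another. A cluster of 33 IRI nuclei without a class name had 107 CPM of Basp1 and 120 of Psd4, from 8 and 9 UMIs. Ptprc, which defines leukocytes, had 1005 CPM in leukocyte-like nuclei and 1.02 in proximal tubule-like nuclei, where it was near 0 in every library (0.561 to 1.67). Gpr176, an orphan receptor known from the circadian clock, had 112 CPM in stroma-like nuclei, with 84.9 to 164 in each library, against 21.4 in the tubule. By single cluster its level was 111.87 CPM in the stroma-like cluster and 110.83 in another cluster that was not stroma-like. Pdgfrb, which defines stroma, had 250 CPM in stroma-like nuclei and 0.304 in proximal tubule-like nuclei. By number of UMIs the tubule still held most of each: 462 of 550 for Pik3r5 and 774 of 949 for Gpr176.

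**Figure D2:**
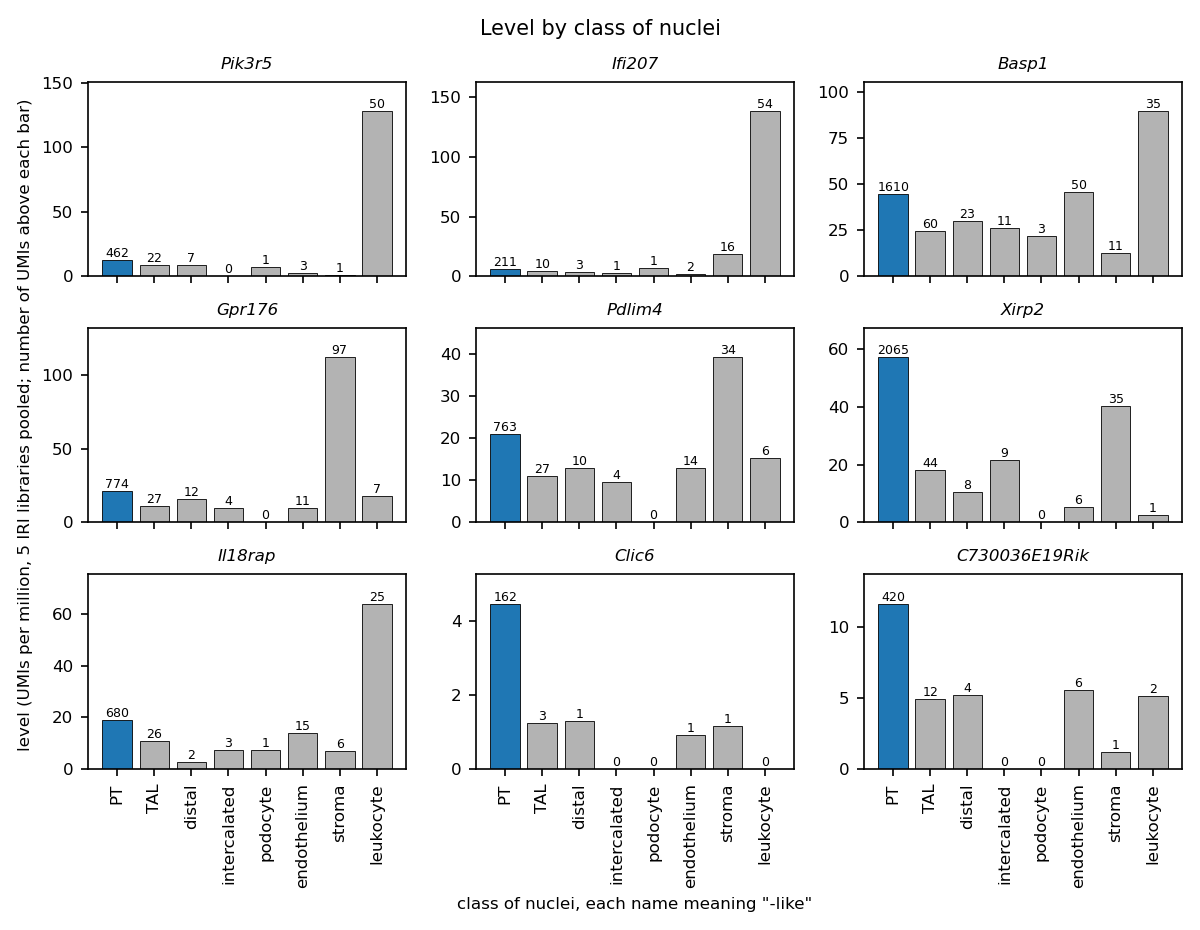
Level (bars, CPM over the 5 IRI libraries pooled, each axis from 0) of 9 genes in each class of nuclei, with the number of UMIs above each bar; proximal tubule-like (PT) is blue. By whole class, Pik3r5 and Ifi207 peak in leukocyte-like nuclei, Gpr176 in stroma-like nuclei and Clic6 in proximal tubule-like nuclei. Single clusters within a class can differ from its level, and many bars outside the tubule rest on fewer than 10 UMIs.

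Within the proximal tubule, 55 of the 58 genes (94.8%) had a higher pooled level in injured-state than in uninjured-state nuclei, and 38 did so in each of the 5 libraries. Of the genes in both tables with 150 or more IRI nuclei, 58.3% were higher in the injured state. The 58 were chosen for UMIs in nuclei that are mostly injured-state and for absence from a control table of mostly uninjured tubule, so the choice favours a high share and nothing is read from the difference. States come from clusters of the same nuclei, and these values have no test. The split also depends on how finely nuclei are clustered. At resolution 1 instead of 2, 3200 rather than 1149 nuclei were uninjured-state. The count of genes higher in the injured state was again 55, though not all were the same genes. The median ratio was 3.72 and that of Havcr1 2.24. Xirp2 then had 24.3, Il18rap 7.75, Adgra1 7.02, Basp1 6.12, Il1rn 5.92, Ccdc33 5.66, Iqsec3 5.30 and Cxcl5 3.46, so the ratios that follow, at resolution 2, are larger than at resolution 1 for each of these. No gene of the 58 was then without a UMI in the uninjured state. Ratios below 1 were those of Gm29337 (0.907), Gm48099 (0.939) and 4930544F09Rik (0.746). At resolution 2 Gm29337 had 4.68. The median ratio over the 58, with 3 genes at their lower bound, was 9.33, and the ratio of Havcr1 itself was 6.95. Adgra1 had 857 UMIs in injured-state and 2 in uninjured-state nuclei, a ratio of 44.5 (95% counting interval 12.3 to 368). Its injured-state level was 26.8 and 33.6 CPM at day 7 and 22.7, 22.4 and 22.6 at day 28. Both day 7 libraries thus lay above those of day 28. Ccdc33, a coiled-coil gene known from testis, had 650 and 2 UMIs, a ratio of 33.7 (9.30 to 279). Iqsec3 had 872 UMIs in injured-state nuclei and 0 in uninjured-state nuclei, where 0 allows up to 0.882 CPM; it was at least 30.2-fold higher. Its injured-state level was 28.1 and 23.4 CPM at day 7 and 38.5, 14.8 and 50.4 at day 28, with day 28 mouse 2 the lowest. Such intervals and bounds cover counting error only.

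Genes of immune signalling had ratios from high to below the median of the 58. Il18rap, the accessory chain of the interleukin 18 receptor, had 678 injured-state and 2 uninjured-state UMIs, a ratio of 35.2 (9.70 to 291). The gene of the other receptor chain, Il18r1, was in both tables and had 20.3 CPM in the injured state and 0.588 in the uninjured state. Il1rn, the antagonist of the interleukin 1 receptor, had 305 UMIs and 1, a ratio of 31.6 (5.64 to 1254). Cxcl5, a chemokine that attracts neutrophils, had 319 and 2, a ratio of 16.5 (4.54 to 137). Il18rap and Il1rn were highest where both Havcr1 and Vcam1 had a UMI, at 38.4 and 17.7 CPM, against 17.4 and 5.93 with Havcr1 alone, 10.1 and 6.34 with Vcam1 alone and 4.26 and 2.70 with neither. Those 4 groups depend on depth, with medians of 3618, 2669, 2859 and 2040 UMIs per nucleus in that order. They also differ by day. Nuclei with Havcr1 alone made up 34.9% and 37.2% of the day 7 libraries and 7.59% to 16.0% of those at day 28. Nuclei with Vcam1 alone made up 3.82% and 4.29% against 14.8% to 28.3%. The part of day in the order of the groups was not tested. Pglyrp2, a peptidoglycan-cleaving enzyme, had 208 UMIs and 0, which makes it at least 7.19-fold higher, and Ubd, a ubiquitin-like modifier induced by cytokines, had 145 and 3, a ratio of 5.02 (1.68 to 24.6). Ubd had 23.4 CPM in injured-state nuclei of day 28 mouse 1 and 3.27 to 4.07 in the other 4 libraries. At resolution 1 the ratio of Ubd was 1.91.

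Xirp2, an actin-binding repeat protein of striated muscle, had 2059 injured-state and 6 uninjured-state UMIs, a ratio of 35.6 (16.3 to 97.1). It was carried by few nuclei: its 2200 UMIs lay in 364 nuclei, up to 78 in 1 nucleus, and the 10% of those nuclei with most of them held 58.9%. Nuclei with 5 or more of its UMIs numbered 88, of which 82 were injured-state, and each library had some (17 and 8 at day 7, and 5, 41 and 17 at day 28). No other member had more than 24 such nuclei. The cluster with its highest level, 276 CPM, was an injured-state cluster led by Havcr1 and Cd44. Mybpc2, a myosin-binding protein gene of fast muscle, had a ratio of 17.1 (4.70 to 142). Medag, known from fat cell differentiation, had 19.9 (5.46 to 165).

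At the other end, 8 of the 58 genes had a ratio under 2, and 6 of these lay under a listed gene on the other strand. The 3 lowest were 4930544F09Rik at 0.561 (0.383 to 0.846), E530011L22Rik at 0.961 (0.597 to 1.63) and Gm7480 at 0.990 (0.649 to 1.58), antisense transcripts of Mtss1, Nktr and Lrmda. C1ql3 had 1.69 (1.17 to 2.53). Gm48099 had 2.12 (1.55 to 2.96) and was higher in the injured state in 2 of 5 libraries only. Clusters of the injured state whose proximal tubule score was above -0.5, with 2930 nuclei, had lower levels of many of the genes than those below it, with 7757 nuclei: 6.04 against 33.7 CPM for Adgra1, 4.70 against 84.7 for Xirp2 and 3.47 against 27.2 for Il18rap. Gm48099, at 26.6 against 26.02, and Gm29337, at 25.1 against 22.7, did not follow that order.

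**Figure D3:**
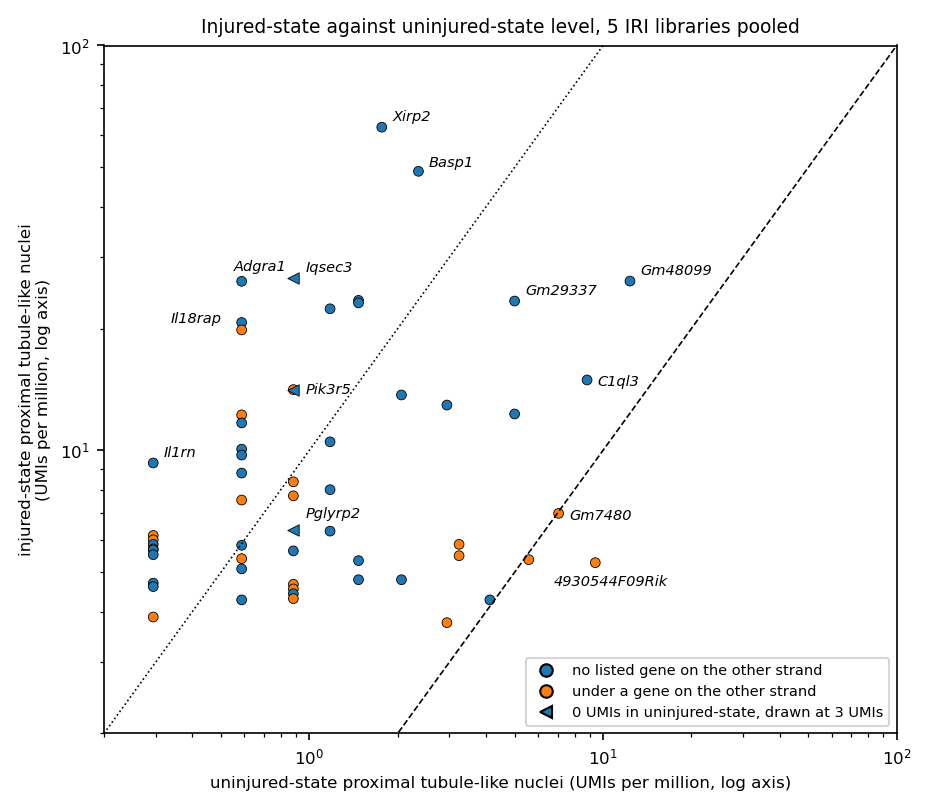
Level in injured-state (vertical) against uninjured-state (horizontal) proximal tubule-like nuclei, CPM over the 5 IRI libraries pooled, both axes logarithmic; the dashed line marks equal levels and the dotted line a 10-fold ratio. Xirp2 and Basp1 lie above the 10-fold line, C1ql3 (ratio 1.69) and Gm48099 (2.12) between the dashed and dotted lines, and 3 genes below the dashed line.

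Day was not a criterion in the choice of genes, but the limit on nuclei counted the days together. A gene seen mainly at a single day could therefore reach that limit. Gm17300, just inside it with 151 nuclei, had 4 proximal tubule-like UMIs at day 7 and 129 at day 28, and Cxcl5 had 300 and 21. The choice is thus not independent of day, and its part in the shares of the 58 called was not tested. Day 28 was tested against day 7 with edgeR's quasi-likelihood test on UMI sums per library, adjusted over all genes of the injury table. In proximal tubule-like sums 6 of the 58 genes were higher at day 28, where 2.4% of 14443 genes tested were, and 3 were lower, where 0.734% were (3.14% in either direction). All 58 passed the filter on low counts. Levels in this comparison are CPM scaled by TMM factors, given as mean ± SD. Cfap157, a protein of cilia and flagella, had 3.14 and 1.61 CPM at day 7 and 25.8, 24.1 and 20.8 at day 28. The day 28 libraries lay close together and far above both day 7 libraries, 23.5 ± 2.53 (n = 3) against 2.38 ± 1.08 (n = 2), a log2 change of 3.26 (SE 0.38, edgeR adjusted p = 0.0187). Medag had 5.04 and 4.98 CPM against 19.0, 19.2 and 13.2, a log2 change of 1.77 (SE 0.32, edgeR adjusted p = 0.0413). It too did not overlap between days. Of all genes tested, 23.15% had every day 28 library above both at day 7, and 21.82% had every one below.

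Among the genes that fell was Gpr176, with 30.4 and 28.1 CPM at day 7 and 11.76, 11.95 and 12.03 at day 28, a log2 change of -1.30 (SE 0.23, edgeR adjusted p = 0.0387). Its spread within each day was small beside the difference. Gm29337, a noncoding transcript at chr1:88868475-88875410, had 32.6 and 36.6 CPM against 7.84, 8.17 and 4.69, a log2 change of -2.33 (SE 0.31, edgeR adjusted p = 0.0237). Gm48099 (chr14:19271274-19282822) had 26.1 and 73.5 CPM against 0, 1.53 and 4.69, a log2 change of -4.39 (SE 0.78, edgeR adjusted p = 0.0397). The 2 day 7 libraries differed from each other by more than the day 28 libraries did, but did not overlap with them. Cxcl5 fell in sums over all nuclei, where it had 11.4 and 18.6 CPM at day 7 and 3.23, 0.629 and 1.14 at day 28 (log2 change -3.47, SE 0.63, edgeR adjusted p = 0.0470). In proximal tubule-like sums it did not pass (-3.33, SE 0.69, adjusted p = 0.0548). Over all nuclei 4 of the 58 were higher and 4 lower, where 1.83% and 0.517% of 15464 genes were (2.35% in all); Gpr176, Gm29337 and Gm48099 were again lower and Cfap157 higher.

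The 2 days filled different clusters within the class. Cluster 0, led by Cdh13, held 27.8% and 23.9% of the day 7 nuclei and 0.161% to 1.00% of those at day 28. Cluster 7, led by Ptchd4, held 1.46% and 0.362% at day 7 and 1.77%, 25.0% and 15.8% at day 28, and cluster 12, with Ccl2 and Vcam1 among its leading genes, held 42.1% of day 28 mouse 1. The part of these clusters in the changes of single genes was not tested. The calls rest on all 5 mice. Without day 7 mouse 1 or without day 7 mouse 2 none of the 58 passed in either direction, which leaves 1 library at day 7. Over all genes 0.395% were then higher and 0.0334% lower without mouse 1, and 0% in both directions without mouse 2. Without day 28 mouse 2 the counts in proximal tubule-like sums were 2 higher and 0 lower (0.553% and 0.08% of all genes), and without day 28 mouse 3 they were 3 and 4 (1.18% and 0.218%). Without day 28 mouse 1, and so within the v3 barcode set, they were 20 and 8 (9.95% and 5.31%). Over all nuclei none of the 58 passed without day 28 mouse 2 or mouse 3, where 0% and 0.0199% of all genes were called.

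Several genes with large differences did not pass. Il18rap had 31.1 and 24.4 CPM at day 7 and 5.04, 5.00 and 13.2 at day 28 (-1.81, SE 0.46, adjusted p = 0.0874). Xirp2 had 35.1 and 20.4 CPM against 59.9, 102 and 78.5 (1.53, SE 0.33, adjusted p = 0.0605). Clca3a2, of the calcium-activated chloride channel regulator family, had 9.18 and 8.75 CPM against 0, 0.408 and 2.65 (-2.99, SE 0.83, adjusted p = 0.103). Cnr1, the brain cannabinoid receptor, had 6.03 and 3.50 CPM against 9.52, 26.2 and 16.9 (1.91, SE 0.49, adjusted p = 0.0911). In none of these 4 did the days overlap, but neither did they in many of all genes tested (23.15% wholly higher and 21.82% wholly lower at day 28). Adgra1 (-0.46, SE 0.24), Iqsec3 (0.32, SE 0.45), Ccdc33 (-0.14, SE 0.33) and Basp1 (-0.31, SE 0.21) had smaller changes than these and did not pass. Samd13 was the most even, with 7.84 to 8.17 CPM over the 5 libraries.

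**Figure D4:**
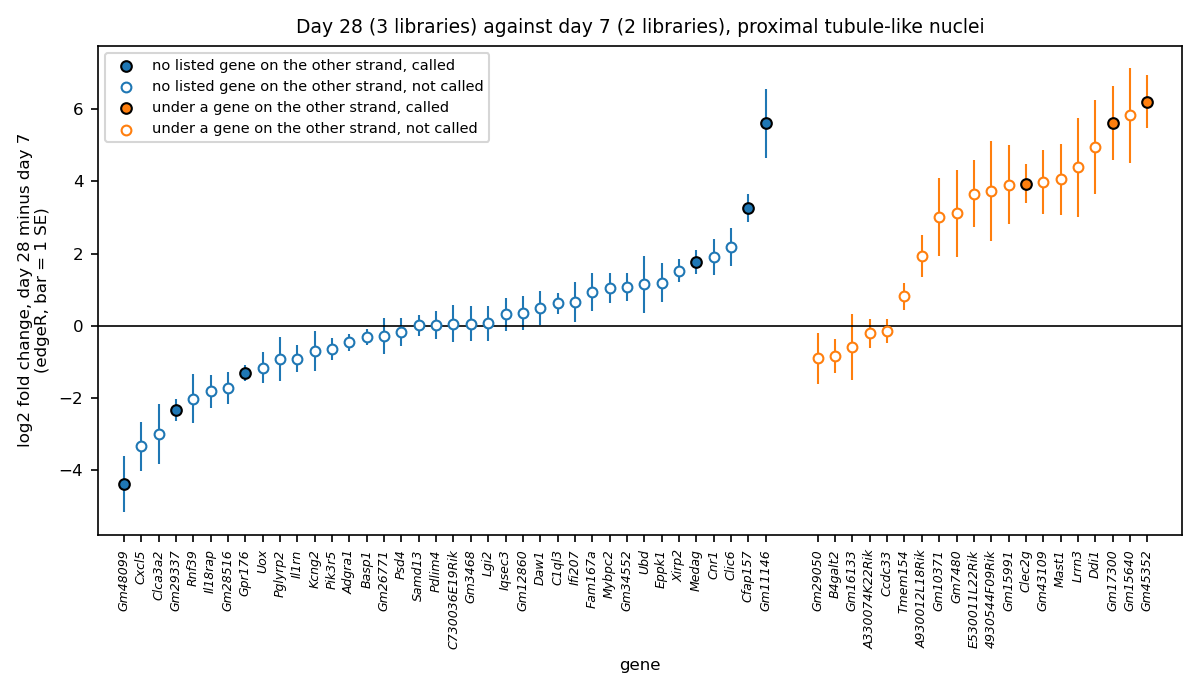
Log2 change from day 7 (2 libraries) to day 28 (3 libraries) in proximal tubule-like sums for each of the 58 genes, with bars of 1 SE from edgeR; filled points passed an adjusted p of 0.05. The 38 genes with no listed gene on the other strand (blue) spread to both sides of 0, while 15 of the 20 under such a gene (orange) lie above it.

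A listed gene with more UMIs on the other strand overlapped 20 of the 58 genes, and 3 of the 6 called higher at day 28 were among these 20. Gm45352, inside the sorting receptor gene Sorcs1 (chr19:50146938-50180652, annotated as antisense), had 0.165 and 0 CPM at day 7 and 8.40, 10.2 and 7.13 at day 28, a log2 change of 6.21 (SE 0.73, edgeR adjusted p = 0.0187). Over pooled nuclei its UMIs numbered 2 at day 7 and 150 at day 28, a ratio of 85.1 with a counting interval of 23.2 to 709. Sorcs1 itself had a change of 0.32 (SE 0.21, adjusted p = 0.413). Gm17300, inside the nuclear exchange factor gene Rcc1, had 4 and 129 UMIs, a ratio of 36.6 (13.95 to 136; edgeR adjusted p = 0.0416). Clec2g, a C-type lectin-like gene, had 1.32 and 0.807 CPM against 26.3, 11.8 and 14.5, a log2 change of 3.94 (SE 0.53, edgeR adjusted p = 0.0251). Gm11146, which overlaps the microRNA host gene Mir99ahg, a gene in neither table, had 3 and 151 UMIs, a ratio of 57.1 (19.2 to 280; edgeR adjusted p = 0.0373). In each of these 4 both day 7 libraries lay below all 3 of day 28. The same held for 23.15% of all genes tested, and for 46.6% of those under a gene on the other strand.

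The median log2 change over the 20 was 3.70, with 3 called higher and 0 lower, and over the other 38 it was 0.0454, with 3 higher and 3 lower. The whole table showed a like split. Of 2161 genes tested under a gene on the other strand, 11.3% were higher and 0.0926% lower (median 0.752), and of 12115 with no such gene 0.776% were higher and 0.858% lower (median -0.0322). Annotated antisense genes of both tables summed to 7167 and 7421 CPM at day 7, 15989, 12932 and 13396 at day 28, and 8888 to 11062 in the controls. Both day 7 libraries were thus the lowest of all 9. Whether the counting used the strand of the reads is not stated in the sources used here. Without strand, reads of such a gene and its partner cannot be told apart, and the part of this in the day difference was not tested.

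Set against the partner gene, the levels of these 20 differed by library rather than by day alone. Ddi1, a protease-like gene inside the growth factor gene Pdgfd, had 0.782 and 0 UMIs per 1000 UMIs of Pdgfd at day 7, and 1.11, 20.1 and 17.1 at day 28. Day 28 mouse 1 thus sat with the day 7 mice. Gm43109, opposite Vcam1, had 5.03 and 2.04 at day 7 and 46.2, 17.1 and 15.5 at day 28, with day 28 mouse 1 the highest. Gm15991, inside the exchange factor gene Psd3, had 1.06 and 0 against 6.99, 22.1 and 24.1, and Gm15640, inside the cytoskeletal gene Phldb2, had 0.401 and 0 against 2.75, 20.8 and 21.9. Ccdc33, which partly overlaps the retinol transporter gene Stra6, had 492 and 567 against 750, 520 and 551, a narrower range. B4galt2, a galactosyltransferase gene, and Tmem154 went the other way, at 551 and 288 against 115, 124 and 103, and at 71.4 and 87.4 against 39.4, 31.9 and 46.0. Of the 20, 9 had no UMI in day 7 mouse 2 and 4 had none in day 28 mouse 1. Partners had UMIs in the controls, which have v2 barcodes: 1105 for Pdgfd, 13189 for Phldb2 and 134 for Vcam1. The 20 were chosen for absence from the control table, so nothing is read from their absence beside these partners.

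**Figure D5:**
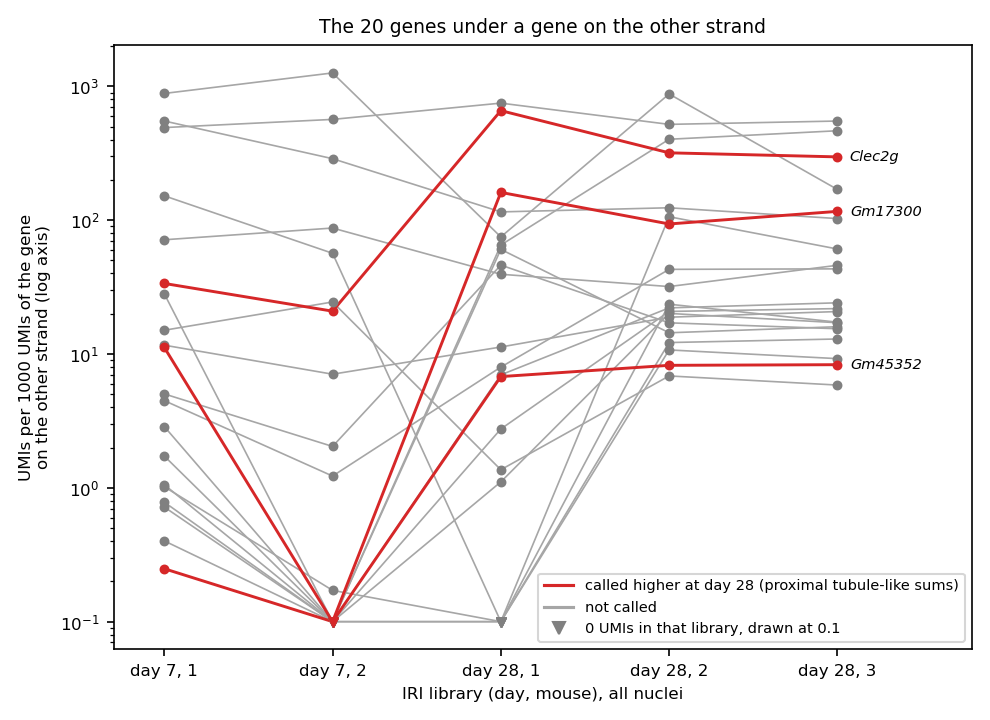
UMIs of each of the 20 genes per 1000 UMIs of the listed gene on the other strand, on a logarithmic axis, in all nuclei of each IRI library; lines join the values of 1 gene, and triangles at 0.1 stand for 0 UMIs. Gm45352, Gm17300 and Clec2g, called higher at day 28, are drawn in red; all 3 are higher in every day 28 library than in either day 7 library.

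The lists to which the genes belong gave their own counts in the same fit. Of 74 cytokine and receptor genes tested in proximal tubule-like sums 3 were higher and 2 lower at day 28, with a median log2 change of 0.27, and neither Il18rap, Cxcl5 nor Il1rn was among them. Of 2091 genes noncoding or predicted by name 229 were higher and 8 lower (median 0.79), with Gm45352, Gm17300 and Gm11146 among the higher and Gm48099 and Gm29337 among the lower. Of 155 ion channel and synaptic genes 3 were higher and 1 lower, and Kcng2, a modulatory potassium channel subunit, had a change of -0.69 (SE 0.55). Over all genes tested the median was 0.0311. Uox, the urate oxidase gene, fell short of a call as well (-1.15, SE 0.42), with 5.21 and 6.86 CPM at day 7 and 3.36, 2.04 and 3.06 at day 28. Clic6 had 1.16 and 2.29 CPM against 5.04, 7.35 and 10.2 (2.18, SE 0.52, adjusted p = 0.0771).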

How the data were processed

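Nuclear RNA of 9 mouse kidneys was sequenced with 10x Chromium 3′ v2 or v3 kits, per the labels, with doublets gated out at the sorter; no doublet caller was run. The authors deposited raw UMI counts per gene and nucleus in 2 tables, control and IRI. Reads were handled with STAR, Cell Ranger and Seurat on mm10, per the submitters' processing notes; neither tool versions nor the use of strand is stated there.

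The 58 genes and the gene lists were chosen with earlier results of these data known. Joint clustering of nuclei used the 16939 genes in both tables (scanpy 1.11.5, leidenalg 0.10.2, 2000 variable genes, 30 components, 20 neighbours, resolution 2, seed 0), giving 36 clusters. The best-scoring class named a cluster if its marker score reached 0.5 with 3 markers raised and no other class scored 1.5 or more and above 50% of it; clusters with no own marker among their 10 leading genes needed 0.8. The last 2 limits were set after the scores were seen. They named the stroma-like cluster and left 2 small clusters unnamed. In all 429 IRI nuclei (2.93%) were unnamed. CPM divides UMIs by all UMIs of the nuclei summed; TMM-scaled CPM are used for days only. Day 28 was compared with day 7 on sums per library with edgeR 4.0.16 in R 4.3.3 (TMM, filterByExpr, quasi-likelihood F test, Benjamini-Hochberg over all genes tested, threshold 0.05); SE is the log2 change divided by the square root of F. On simulated counts 4-fold changes were recovered for 59.8% of genes in proximal tubule-like sums and 68.4% in sums over all nuclei, and 2-fold changes for 7.1% and 7.2%, none in the wrong direction. P-values measure the spread of these libraries, which at day 28 includes the shallowest IRI library, with v2 barcodes. DESeq2 1.42.0, other scalings and filters, a replicate block, left-out libraries, deeper nuclei and injured-state nuclei were alternatives. Gene positions come from GENCODE M21 (GRCm38), in which all 58 symbols had 1 match, and promoters from RefSeq (GRCm38.p6). A further promoter is not reported here. Counting intervals are exact 95% binomial intervals, and the bound for 0 UMIs is 3 counts over the pooled nuclei.

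Named genes were the 12 seen in most nuclei, the called members, up to 4 per class by the ratio to the next class among those with 30 UMIs, the 6 highest and 3 lowest injured to uninjured ratios among those with 100 UMIs, the genes at the limit of 150 nuclei, and members of lists. Others named here were picked after their values were seen, to show the spread or a role: Cnr1, Clca3a2, Uox, Samd13, Mybpc2, Psd4, Ubd, Pglyrp2, Tmem154, B4galt2, Gm43109, Gm15991 and Gm15640. The split by strand, the split of injured-state clusters at a score of -0.5, the groups by Havcr1 and Vcam1, and the states at resolution 1 were also added after seeing the data.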

Additional observations from a re-analysis of the deposited data

Results flagged for a closer look

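The control table also lists genes that the IRI table does not, and these enter no comparison above. Six2, a transcription factor gene of nephron progenitors, had a UMI in 438 control nuclei, with 571 UMIs in all: 154 in the mouse without surgery and 82, 128 and 207 in the sham mice. The control line carries the Six2TGC allele, and the IRI line does not; the part of that allele was not tested. Olfr93, an olfactory receptor gene at chr17:37140423-37161494, had a UMI in 898 control nuclei, with 173, 412, 52 and 330 UMIs in the 4 libraries in the same order. Of the 516 genes of the control table alone 3 had a UMI in 150 or more control nuclei, the third being Gm4737 with 153.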

How the results depend on the processing

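The number of genes depended on the limit and on depth: 58 became 99 at 100 nuclei, 21 at 300, 12 with nuclei thinned to 1000 UMIs, and 31 to 49 with 1 library left out. The count of 55 genes higher in the injured state was 54 to 56 with 1 library left out. It was 55, not all the same genes, with states from clusters at resolution 1, where the median ratio fell from 9.33 to 3.72. In proximal tubule-like sums the 453 calls over all genes became 1448 with DESeq2, 818 without the filter and 2204 with v3 barcodes only, and 0 to 2204 with 1 library left out. The 6 members called higher became 15, 13 and 20 in the same order, 10 in injured-state nuclei only, and 0 to 20 with 1 library left out. The 3 called lower became 6, 5 and 8, and 0 to 8. In sums over all nuclei the 363 calls became 1477, 746 and 2133, and 0 to 2133 with 1 library left out. The 4 members called higher became 14, 8 and 20, and 0 to 20. The 4 called lower became 1 with library totals, 2 in nuclei of 1000 or more UMIs and 8 with v3 barcodes only, and 0 to 8 with 1 library left out. With 1 library left at day 7, that library is assumed to vary like the others. The cause was not tested. Called members kept their direction under every alternative run. A fit on v2 barcodes only was not run, since 1 IRI library has them. Calls of 2-fold changes were rare in simulation at this depth and number of mice.

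Replicate numbers in the labels did not pair the mice. Deviations of day 7 and day 28 mouse 1 correlated at -0.074 and those of mouse 2 at -0.1425 in proximal tubule-like sums, and at -0.07849 and -0.13277 over all nuclei. With the replicate block, which takes day 28 mouse 3 out of the day contrast, the calls over all genes were 1179 and 742, members called higher 17 and 9, and members called lower 5 and 5.

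Changes near 0 that were not called turned sign under some settings. With 1 library left out, the log2 changes in proximal tubule-like sums were -0.2924 to 0.3443 for Pdlim4, -0.1706 to 0.6611 for Iqsec3, -0.484 to 0.07888 for Ccdc33, -0.6877 to 0.3466 for Lgi2, -0.2824 to 0.4435 for C730036E19Rik and -0.2832 to 0.5425 for Gm3468. Over all nuclei they were -0.3927 to 0.2461 for Pdlim4, -0.403 to 0.4781 for Iqsec3, -0.8277 to 0.2637 for Lgi2, -0.3849 to 0.2658 for C730036E19Rik and -0.4564 to 0.465 for Gm3468. With the replicate block the tubule changes were -0.3163 for Pdlim4, -0.1834 for Iqsec3 and -0.3502 for C730036E19Rik, and those over all nuclei -0.3876 for Iqsec3, 0.008604 for Lgi2 and 0.1314 for Gm3468. Library totals gave -0.01334 for Pdlim4 and -0.00692 for Lgi2 in the tubule. With v3 barcodes only the tubule changes were -0.05176 for Pdlim4 and -0.2832 for Gm3468, and those over all nuclei 0.2637 for Lgi2 and 0.2658 for C730036E19Rik. In nuclei of 1000 or more UMIs they were 0.07314 for Pdlim4 and 0.03447 for Lgi2 over all nuclei.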
